A study of Mus musculus with 16 samples.

Results

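The comparison described here set tumours that differed from the control in both respects the study varied, an Mdk hairpin combined with anti-PD1, against tumours that had neither. Its members were chosen by their labels, with earlier results of these data known. They are 8 of the 16 tumours of the series, 4 from shMDK+PD1 and 4 from shCtrl+IgG2A. The tumour cells in all groups were B16R2L, a melanoma line of the mouse, and the tumours grew in mice. In the shMDK+PD1 group the cells carried a short hairpin RNA against Mdk (shMdk-5, so 1 hairpin and 1 line), and the mice were given clone RMP1-14, an antibody against PD1, at 10 mg/kg. In the shCtrl+IgG2A group the cells carried a non-target hairpin and the mice were given an IgG2a antibody, for which the labels give no dose. The control is therefore a line with a hairpin, in mice that received an antibody, and not an untreated tumour. Antibodies were given 2 times a week for 2 weeks once a tumour had reached 100 mm3. The remaining 8 tumours had only the knockdown (shMDK+IgG2A, n = 4) or only the anti-PD1 (shCtrl+PD1, n = 4). Hairpin and antibody change together between the 2 groups compared, so the contrast alone does not say which of them goes with a difference. The labels give no age, strain or sex of the mice.

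Midkine, the product of Mdk, is a secreted heparin-binding growth factor that many tumours make and that is known to act on tumour cells, vessels and immune cells through syndecans, Lrp1, integrins and other receptors. PD1 is an inhibitory receptor on T cells, and antibodies that block it can release T cells that recognise a tumour. Interferon gamma, which activated T cells and natural killer cells secrete, induces guanylate-binding proteins, antigen presentation genes and the chemokines Cxcl9 and Cxcl10 in the cells around them.

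Transcripts were counted from their 3′ ends, so values do not scale with transcript length. The 8 tumours had 7455187 to 8886334 reads each, and the 16 tumours had 5686405 to 8886334. Values are normalised counts, that is, reads divided by a size factor per tumour, and values are listed below in the order of tumours 1 to 4. Of 16094 genes, 14672 with a mean of at least 5 over the 16 tumours were tested. Libraries differed in GC slope, the change of log2 level, relative to the mean of the 16 tumours, with the GC content of the last 300 transcript bases. The slope was positive in 5 of 16 tumours, shMDK+PD1 tumour 1, shMDK+IgG2A tumours 3 and 4, and shCtrl+IgG2A tumours 1 and 2. Per 10% of GC content it was 0.095, -0.02, -0.045 and -0.097 in the shMDK+PD1 tumours. In the shCtrl+IgG2A tumours it was 0.17, 0.131, -0.111 and -0.085. Only positive slopes were singled out, although some negative slopes were of similar size. Counts without these 5 libraries, which leave 3 shMDK+PD1 against 2 shCtrl+IgG2A tumours, are given beside the counts of the gene lists. Melanoma markers were abundant in all 8 tumours, with summed levels of 91511 to 129550 in shMDK+PD1 and 133414 to 180690 in shCtrl+IgG2A tumours (Pmel, Tyr, Mitf and 3 others, none past the test).

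Mdk itself (chr2:91929805-91932297, minus strand, GRCm38) had 312, 289.9, 147 and 96.5 normalised counts in the shMDK+PD1 tumours, against 601, 727, 959 and 1161 in the shCtrl+IgG2A tumours. The groups did not overlap. Mean Mdk was 211 ± 106 in shMDK+PD1 tumours and 862 ± 248 in shCtrl+IgG2A tumours (SD, n = 4 each), so shMDK+PD1 tumours kept 24.5% of the control level (two-sided exact permutation p = 0.0286, the smallest that 4 against 4 tumours can give). In the fit across all genes Mdk had a log2 fold change -2.14 ± 0.35 SE, adjusted p = 8.36e-04. Mdk transcripts stayed detectable in all 4 shMDK+PD1 tumours.

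Between shMDK+PD1 and shCtrl+IgG2A tumours, 1447 of 14672 genes passed limma's test at a Benjamini-Hochberg adjusted p under 0.05, which is 9.86%. Of these, 938 genes (6.39%) were higher and 509 (3.47%) lower in shMDK+PD1 tumours. The higher genes changed by more: their median log2 fold change was 2.02, and 757 of them (5.16% of all tested) changed at least 2-fold. Among the lower genes the median was -0.72, and 110 (0.75%) changed at least 2-fold. In 852 of the higher genes every shMDK+PD1 tumour lay above every shCtrl+IgG2A tumour, which held for 9.39% of all tested genes, and 465 of the lower genes showed the opposite order, which held for 7.52%. At an unadjusted p under 0.05 stood 3476 genes (23.7%). The called genes also differed in level, with a median normalised count over all tumours of 67.2 for the higher genes and 367.5 for the lower genes, against 125.0 for all tested genes. All tested genes had a median log2 fold change of 0.016. Without the 5 libraries with a positive GC slope, 483 genes (3.29%) were higher and 81 (0.552%) lower. Of the 938 higher genes, 466 still passed in that setting, and of the 509 lower genes 56 did. All 938 and all 509 kept their direction in it. With the GC slope as a covariate, 1367 genes (9.32%) were higher and 934 (6.37%) lower. The count of lower genes was not stable when 1 tumour was left out, and it fell for tumours of both groups. Leaving out shMDK+PD1 tumour 1, 2 or 4 gave 313, 294 and 297, and leaving out shCtrl+IgG2A tumour 1 or 2 gave 272 and 228. It was 405 without shMDK+PD1 tumour 3, and 489 and 570 without shCtrl+IgG2A tumour 3 or 4. The count of higher genes stayed between 680 and 900 when 1 of the 8 tumours was left out. Median 3′-end GC content was 43.0% in the higher, 42.3% in the lower and 42.7% in all tested genes. In 2 tumours outside the 2 groups, shMDK+IgG2A tumour 1 and shCtrl+PD1 tumour 2, the gene model Gm42418 took an unusual share of reads, and without them 1137 genes (7.75%) were higher and 761 (5.19%) lower.

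**Figure D1:**
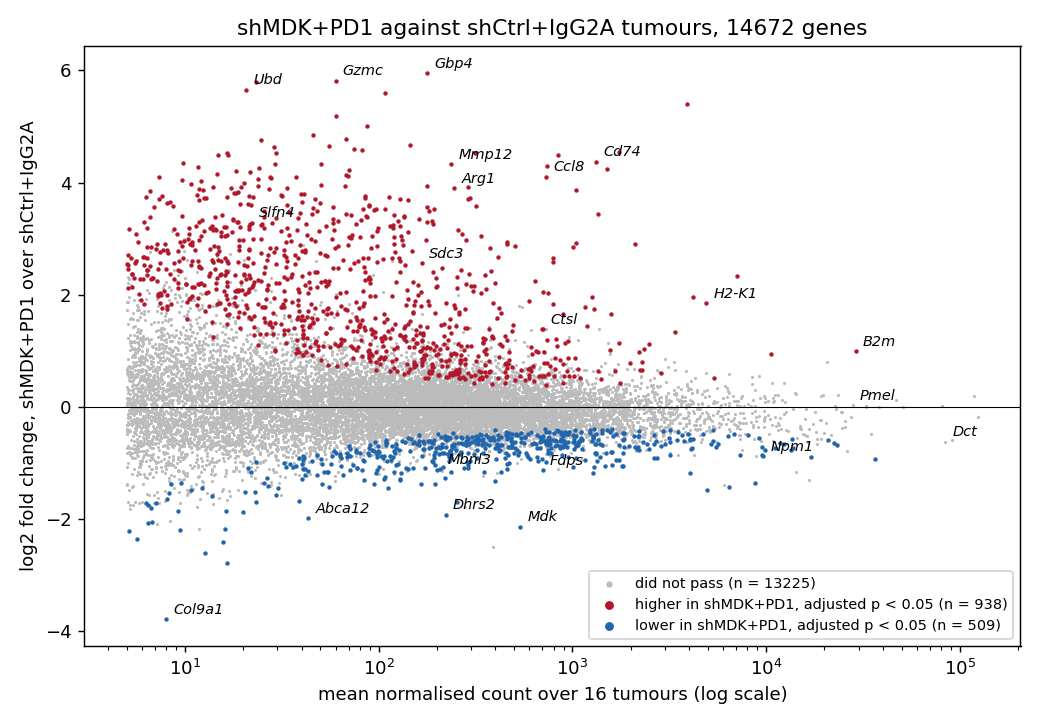
Each point is 1 of 14672 tested genes, with its mean normalised count over the 16 tumours on the x axis (log scale) and its log2 fold change of shMDK+PD1 over shCtrl+IgG2A on the y axis. The 938 genes that passed above 0 reach log2 fold changes over 5, while most of the 509 that passed below 0 lie between 0 and -1 at higher levels.

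Most genes of the interferon gamma response were higher. Of 28 tested genes of this list, 26 were higher and none lower in shMDK+PD1 tumours, with a median log2 fold change of 2.94 (23 higher without the libraries with a positive GC slope). This and the other lists were written with earlier results of these data known, so their counts describe the lists and do not test them. Some genes belong to more than 1 list. Of all tested genes 6.39% were higher and 3.47% lower, and 3.29% and 0.552% without the libraries with a positive GC slope. Gbp4, a guanylate-binding protein of cell-autonomous defence, had 447, 470.0, 418 and 430.0 normalised counts in the shMDK+PD1 tumours, against 11.3, 6.39, 6.66 and 2.77 in the shCtrl+IgG2A tumours. The shMDK+PD1 tumours were nearly equal to each other and all far above the controls (log2 fold change 5.95 ± 0.70 SE, adjusted p = 5.48e-05). Cxcl9, a chemokine that draws T cells carrying Cxcr3, had 969.5, 699, 545 and 644 normalised counts in the shMDK+PD1 tumours, against 108, 23.4, 11.4 and 24.9 in the shCtrl+IgG2A tumours. Its groups did not overlap, and shCtrl+IgG2A tumour 1 was the highest control (log2 fold change 4.52 ± 0.75 SE, adjusted p = 8.33e-04). Gbp2, of the same family as Gbp4, averaged 653 ± 149.8 in shMDK+PD1 tumours and 43.1 ± 15.6 in shCtrl+IgG2A tumours (SD, n = 4 each; log2 fold change 3.93 ± 0.49 SE, adjusted p = 1.03e-04). Tgtp1, an interferon-induced GTPase, averaged 44 ± 27 in shMDK+PD1 tumours and 1.29 ± 0.962 in shCtrl+IgG2A tumours (SD, n = 4 each), and Serpina3g, a serine protease inhibitor of immune cells, 131 ± 60.5 in shMDK+PD1 tumours and 6.14 ± 6.13 in shCtrl+IgG2A tumours (SD, n = 4 each). Guanylate-binding proteins and Tgtp1 have near-identical copies and Gbp4 overlaps Gbp8, so reads of these genes can be assigned to the wrong copy. Of 30 genes of the type I interferon response, a list that shares members with the first, 15 were higher and none lower (median 1.09; 9 higher without the libraries with a positive GC slope), among them Zbp1, a sensor of nucleic acids, with 238 ± 53.3 in shMDK+PD1 tumours and 18.6 ± 11.7 in shCtrl+IgG2A tumours (SD, n = 4 each), and Oas3, an antiviral synthetase, with 212 ± 58.7 in shMDK+PD1 tumours and 19.1 ± 10.5 in shCtrl+IgG2A tumours (SD, n = 4 each). Leukocyte transcripts moved with these genes, as described below, and their part in the interferon lists was not tested. In RNA from whole tumours, more cells of a type and more RNA per cell cannot be told apart, and the same holds for fewer cells and less RNA per cell.

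The promoters of interferon-responsive genes are known to carry 2 kinds of short elements, GAS elements (TTCNNNGAA) and ISRE-type elements (GAAA and GAAA with 2 bases of any kind between them). The 4 windows below belong to the called list members with the largest changes that had an entry in the RefSeq promoter table (GRCm38.p6), and they span 250 bases before to 50 bases after the start of the gene, 5′ to 3′ on the gene's strand. Capitals mark matches to either motif, searched on both strands. They lie at chr12:104235897-104236196 (plus) for Serpina3g, chr5:92328030-92328329 (minus) for Cxcl9, chr11:48992197-48992496 (minus) for Tgtp1 and chr3:142620413-142620712 (plus) for Gbp2.
Serpina3g: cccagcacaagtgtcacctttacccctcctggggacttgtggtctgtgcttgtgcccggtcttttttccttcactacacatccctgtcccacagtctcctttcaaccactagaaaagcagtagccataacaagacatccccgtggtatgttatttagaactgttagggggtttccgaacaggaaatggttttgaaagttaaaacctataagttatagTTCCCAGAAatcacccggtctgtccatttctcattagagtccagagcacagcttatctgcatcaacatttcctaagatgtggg
Cxcl9: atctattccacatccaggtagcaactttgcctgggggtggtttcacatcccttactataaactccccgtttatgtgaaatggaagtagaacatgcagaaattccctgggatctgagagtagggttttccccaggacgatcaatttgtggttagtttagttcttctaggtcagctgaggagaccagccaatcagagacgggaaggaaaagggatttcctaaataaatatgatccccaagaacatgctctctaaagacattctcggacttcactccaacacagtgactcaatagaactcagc
Tgtp1: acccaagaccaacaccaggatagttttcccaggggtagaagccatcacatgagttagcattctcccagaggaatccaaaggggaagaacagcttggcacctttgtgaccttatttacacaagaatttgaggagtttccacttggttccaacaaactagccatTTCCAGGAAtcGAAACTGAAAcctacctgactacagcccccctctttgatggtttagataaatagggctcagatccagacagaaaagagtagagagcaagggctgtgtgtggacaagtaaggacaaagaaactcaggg
Gbp2: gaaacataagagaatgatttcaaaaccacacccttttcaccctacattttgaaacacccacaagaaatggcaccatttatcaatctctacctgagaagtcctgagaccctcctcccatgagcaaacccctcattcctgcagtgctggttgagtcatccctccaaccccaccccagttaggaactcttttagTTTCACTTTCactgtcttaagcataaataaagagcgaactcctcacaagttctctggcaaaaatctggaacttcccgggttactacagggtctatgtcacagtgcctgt
The Serpina3g window held 1 GAS match, the Gbp2 window 1 ISRE match on the opposite strand and the Tgtp1 window 1 of each, side by side, while these letters were not in the Cxcl9 window. Among the windows of the called members of the list, 10 of 20 held the ISRE letters and 10 of 20 held the GAS letters. The shares were 10.3% and 9.83% in 885 windows of all higher genes, 4.47% and 6.26% in 447 windows of lower genes, 3.22% and 6.93% in 13227 windows of all tested genes, and 3.44% and 8.3% in all 32851 windows. A match is a description of the letters and not a measured binding site.

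Antigen presentation genes rose with them. Among MHC class II presentation genes, which professional antigen-presenting cells use to show peptides to CD4 T cells, 9 of 10 tested were higher (median log2 fold change 3.91), and the same number passed without the libraries with a positive GC slope. H2-Aa, a class II alpha chain, had 4659, 5940.2, 2908 and 3453 normalised counts in the shMDK+PD1 tumours, against 231, 168, 176 and 134 in the shCtrl+IgG2A tumours (log2 fold change 4.54 ± 0.48 SE, adjusted p = 2.34e-05). The lowest shMDK+PD1 tumour stood far above the highest control. Cd74, the invariant chain that guides class II molecules to peptide loading, averaged 2724 ± 852 in shMDK+PD1 tumours and 166 ± 152 in shCtrl+IgG2A tumours (SD, n = 4 each), and H2-Ab1, a class II beta chain, 1697 ± 784 in shMDK+PD1 tumours and 88.8 ± 50.3 in shCtrl+IgG2A tumours (SD, n = 4 each). Class I genes, which nearly all cells use to show peptides to CD8 T cells, changed less: 12 of 19 were higher and none lower (median 1.37; 12 higher without the libraries with a positive GC slope). H2-K1, a class I heavy chain, had 9830.3, 8618, 7326 and 8921 normalised counts in the shMDK+PD1 tumours, against 2215, 2135, 2746 and 2515 in the shCtrl+IgG2A tumours (log2 fold change 1.85 ± 0.27 SE, adjusted p = 3.08e-04). B2m, the light chain of all class I molecules, averaged 39684 ± 4497 in shMDK+PD1 tumours and 19987 ± 2320.0 in shCtrl+IgG2A tumours (SD, n = 4 each; log2 fold change 0.99 ± 0.23 SE, adjusted p = 0.00912), and in the fit without the libraries with a positive GC slope its adjusted p was 0.169. Tap1, a peptide transporter, averaged 928 ± 65.8 in shMDK+PD1 tumours and 256 ± 67.1 in shCtrl+IgG2A tumours (SD, n = 4 each), and Psmb9, a subunit of the immunoproteasome, 677 ± 252 in shMDK+PD1 tumours and 99.7 ± 79.2 in shCtrl+IgG2A tumours (SD, n = 4 each).

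**Figure D2:**
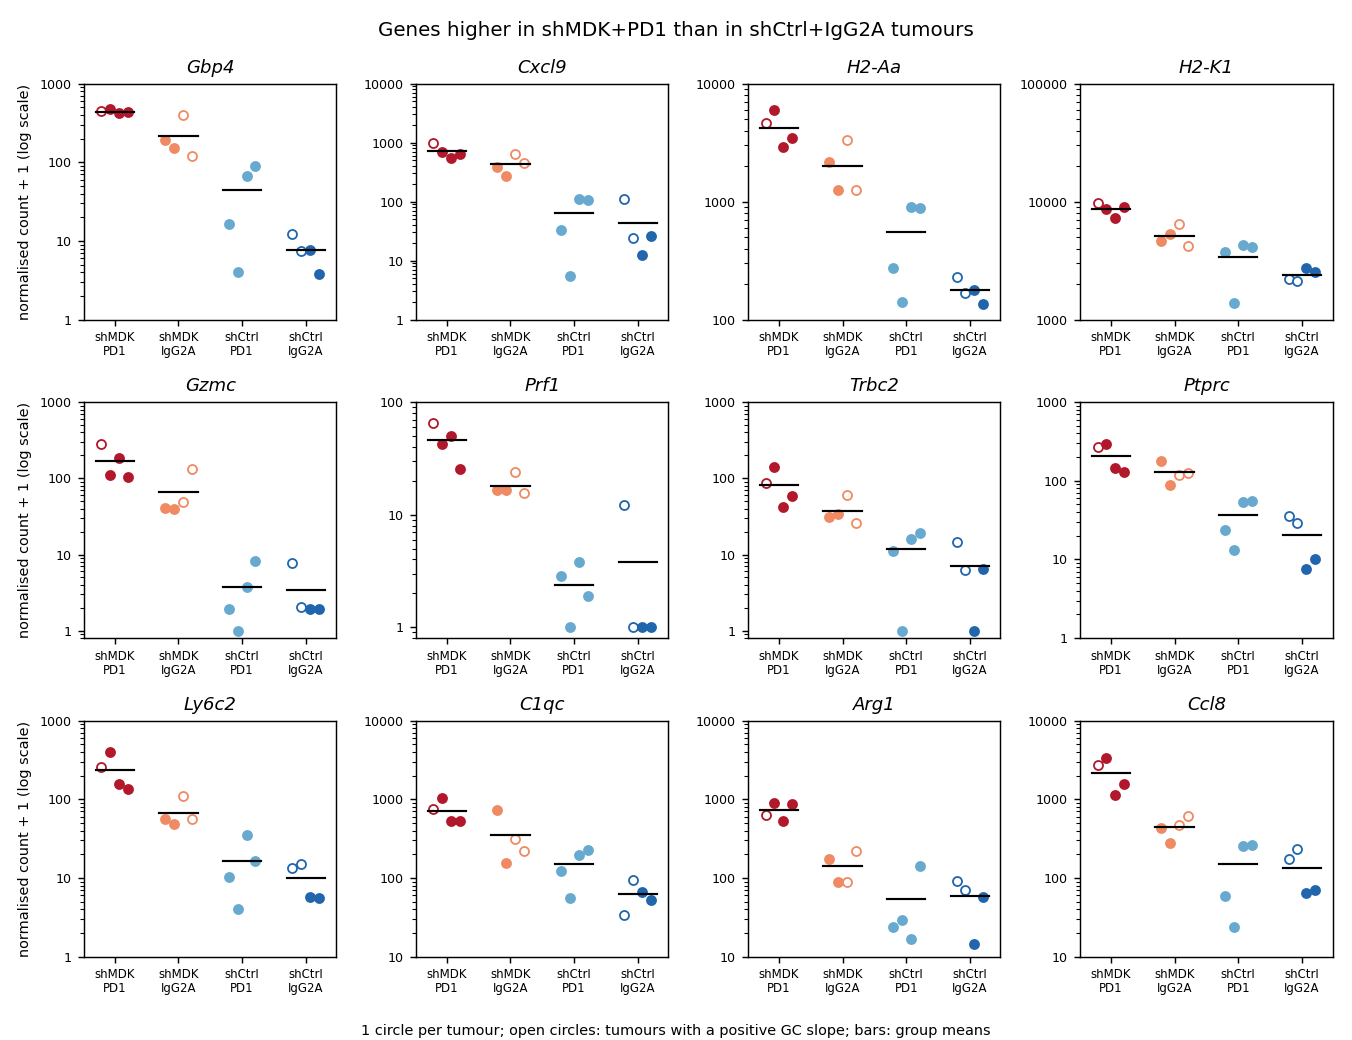
Normalised counts + 1 (log scale) of 12 genes in every tumour of the 4 groups, 1 circle per tumour, with a bar at the group mean and open circles for tumours with a positive GC slope. In all 12 genes every shMDK+PD1 tumour lies above every shCtrl+IgG2A tumour, and the shMDK+IgG2A tumours mostly lie between the shMDK+PD1 and shCtrl+PD1 tumours.

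Several transcripts of cytotoxic lymphocytes were near 0 in the control tumours. All 12 tested cytotoxic effector genes were higher in shMDK+PD1 tumours, with a median log2 fold change of 4.16, and 8 of the 12 passed without the libraries with a positive GC slope. Gzmc, a granzyme that cytotoxic cells release into their targets, had 281, 109.7, 183 and 103 normalised counts in the shMDK+PD1 tumours, against 6.75, 1.07, 0.951 and 0.923 in the shCtrl+IgG2A tumours (log2 fold change 5.81 ± 0.63 SE, adjusted p = 2.72e-05). Its highest control was tumour 1, and the neighbouring granzyme genes Gzmd to Gzmg are similar enough to share reads with it. Prf1, the pore-forming protein through which granzymes enter, had 64.1, 41.1, 49.1 and 24.6 normalised counts in the shMDK+PD1 tumours, against 11.3, 0, 0 and 0 in the shCtrl+IgG2A tumours. Only 1 control tumour had any Prf1 read, and all 4 shMDK+PD1 tumours were above it (log2 fold change 4.53 ± 0.69 SE, adjusted p = 4.30e-04). Gzma had 320 reads in the 4 shMDK+PD1 tumours together and 1 read in the 4 shCtrl+IgG2A tumours, a ratio of normalised levels of 287 with a 95% exact counting interval of 51.2 to 11400.0. The ubiquitin-like gene Ubd, which interferon gamma and tumour necrosis factor induce, stood at 266 reads in shMDK+PD1 and 1 read in shCtrl+IgG2A tumours (ratio 239, interval 42.5 to 9470.0). These intervals cover counting error only, and both genes are too low in the controls for a fitted fold change. Gzmb and Ifng were not analysed here.

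Most T cell genes were higher in shMDK+PD1 tumours, several of them at low levels. Of 15 T cell genes, 10 were higher and none lower (median 2.53), and 4 passed without the libraries with a positive GC slope and 6 without shMDK+PD1 tumour 2. The summed level of the T cell markers, of which 5 of 6 tested were higher, was 91.5 to 280 in shMDK+PD1 and 5.71 to 48.4 in shCtrl+IgG2A tumours. Trbc2, a constant region of the T cell receptor, averaged 80.9 ± 42.8 in shMDK+PD1 tumours and 6.09 ± 5.57 in shCtrl+IgG2A tumours (SD, n = 4 each; log2 fold change 3.90 ± 0.84 SE, adjusted p = 0.00593), and Cd3e, a signalling chain of the receptor complex, 15.2 ± 8.48 in shMDK+PD1 tumours and 1.07 ± 1.6 in shCtrl+IgG2A tumours (SD, n = 4 each). Cd8a, the coreceptor of cytotoxic T cells, had 20.4, 17.6, 1.7 and 8.46 normalised counts in the shMDK+PD1 tumours, against 2.25, 0, 0 and 1.85 in the shCtrl+IgG2A tumours. Here the groups overlapped, since shMDK+PD1 tumour 3 lay below 2 controls, and the call (adjusted p = 0.0475) was kept in only 2 of 8 fits that left out 1 tumour each. Il2rb, a cytokine receptor chain of T and natural killer cells, averaged 102 ± 31.6 in shMDK+PD1 tumours and 8.22 ± 5.79 in shCtrl+IgG2A tumours (SD, n = 4 each). Of 3 natural killer cell genes 2 were higher, and 2 also without the libraries with a positive GC slope. The 2 higher genes were Il2rb and Gzma, which is also counted among the cytotoxic effectors. Of 4 natural killer cell markers 1 had values and was too low to be tested. Its level was 0.846 to 11.7 in shMDK+PD1 and 0 to 1.07 in shCtrl+IgG2A tumours. Among B and plasma cell genes 5 of 8 were higher, led by the immunoglobulin light chain Igkc, which varied widely, with 292, 610.1, 49.1 and 242 normalised counts in the shMDK+PD1 tumours, against 13.5, 6.39, 0.951 and 0.923 in the shCtrl+IgG2A tumours. The count was 3 of 8 without the libraries with a positive GC slope, and also without shMDK+PD1 tumour 2 or shCtrl+IgG2A tumour 2 or 3. The 2 tested B cell markers did not pass, and their summed level was 94.1 to 131 in shMDK+PD1 and 69.2 to 105 in shCtrl+IgG2A tumours.

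Myeloid genes rose as broadly. In all, 19 of 22 macrophage and monocyte genes were higher and none lower, with a median log2 fold change of 3.03, and 17 were higher without the libraries with a positive GC slope. Summed macrophage markers were 2349 to 5516 in shMDK+PD1 and 333 to 836 in shCtrl+IgG2A tumours (6 of 6 higher), and those of monocytes 246 to 666 in shMDK+PD1 and 10.5 to 32.0 in shCtrl+IgG2A tumours (2 of 2 higher). Of 16 genes shared by leukocytes, 13 were higher (median 2.34; 10 without the libraries with a positive GC slope). Ptprc, the leukocyte common antigen CD45, had 266, 292, 142 and 128 normalised counts in the shMDK+PD1 tumours, against 34.9, 27.7, 6.66 and 9.23 in the shCtrl+IgG2A tumours (log2 fold change 3.53 ± 0.51 SE, adjusted p = 2.88e-04). Ly6c2, a surface protein of inflammatory monocytes with close family members that may share its reads, had 254, 400.5, 156 and 133 normalised counts in the shMDK+PD1 tumours, against 12.4, 13.8, 4.75 and 4.62 in the shCtrl+IgG2A tumours (log2 fold change 4.59 ± 0.55 SE, adjusted p = 6.84e-05). Ccr2, the receptor that brings monocytes into tissue, averaged 178 ± 65.9 in shMDK+PD1 tumours and 10.5 ± 7.07 in shCtrl+IgG2A tumours (SD, n = 4 each). Adgre1, which encodes the macrophage antigen F4/80, averaged 128 ± 45 in shMDK+PD1 tumours and 12.1 ± 3.86 in shCtrl+IgG2A tumours (SD, n = 4 each; log2 fold change 3.28 ± 0.82 SE, adjusted p = 0.0162), with an adjusted p of 0.219 without the libraries with a positive GC slope. C1qc, a subunit of the first complement component and made mostly by macrophages, averaged 717 ± 241 in shMDK+PD1 tumours and 60.7 ± 25.3 in shCtrl+IgG2A tumours (SD, n = 4 each), and C3ar1, a complement receptor, 551 ± 180.1 in shMDK+PD1 tumours and 64.5 ± 31 in shCtrl+IgG2A tumours (SD, n = 4 each). Complement genes were higher in 10 of 13 and Fc receptors in 5 of 7, against 8 and 5 without the libraries with a positive GC slope. In the list of neutrophil and inflammatory myeloid genes 3 of 10 were higher, with a median of 1.45. That count was 1 without the libraries with a positive GC slope, and also without shMDK+PD1 tumour 1 or shCtrl+IgG2A tumour 4. Of the 4 neutrophil markers none passed, at summed levels of 74.4 to 445 in shMDK+PD1 and 79.9 to 109 in shCtrl+IgG2A tumours. Dendritic cell genes were higher in 1 of 7, Itgax, an integrin that macrophages also carry, and in 1 without the libraries with a positive GC slope. The shares over all tested genes were 6.39% and 3.29%.

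The myeloid genes that rose included those linked to alternative activation, a state that is known for tissue repair and for holding back T cells. Of 11 such genes 9 were higher and none lower, with a median of 3.44, and the same number passed without the libraries with a positive GC slope. Arg1, an arginine-consuming enzyme, had 630.5, 891, 532 and 868 normalised counts in the shMDK+PD1 tumours, against 90, 69.3, 13.3 and 56.3 in the shCtrl+IgG2A tumours (log2 fold change 3.90 ± 0.60 SE, adjusted p = 4.30e-04). The lowest shMDK+PD1 tumour was several times above the highest control. Chil3, a chitinase-like protein of mouse macrophages, averaged 102 ± 70.6 in shMDK+PD1 tumours and 7.09 ± 5.14 in shCtrl+IgG2A tumours (SD, n = 4 each), and Mgl2, a lectin, 79.9 ± 80.4 in shMDK+PD1 tumours and 2.81 ± 1.52 in shCtrl+IgG2A tumours (SD, n = 4 each). Pdcd1lg2, which encodes PD-L2, a ligand of PD1, had 32.1, 69.5, 14.4 and 33.9 normalised counts in the shMDK+PD1 tumours, against 3.38, 1.07, 0 and 0 in the shCtrl+IgG2A tumours. Cd274, which encodes the other ligand, PD-L1, did not pass (adjusted p = 0.258): it had 290.5, 236, 217 and 219 normalised counts in the shMDK+PD1 tumours, against 368, 107, 97 and 76.6 in the shCtrl+IgG2A tumours, and control tumour 1 was the highest of the 8. Fgl2, a protein known to suppress T cells in its secreted form, averaged 186 ± 95 in shMDK+PD1 tumours and 5.72 ± 3.18 in shCtrl+IgG2A tumours (SD, n = 4 each; log2 fold change 4.78 ± 0.55 SE, adjusted p = 4.01e-05). Checkpoint receptors and ligands as a list had 3 of 8 higher, and 2 without the libraries with a positive GC slope.

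Chemokine genes were higher in 13 of 16, with none lower and a median of 2.93 (9 higher without the libraries with a positive GC slope). Ccl8, which attracts monocytes and T cells, had 2759, 3307, 1132 and 1557 normalised counts in the shMDK+PD1 tumours, against 171, 234, 63.7 and 69.2 in the shCtrl+IgG2A tumours (log2 fold change 4.10 ± 0.64 SE, adjusted p = 4.93e-04). The monocyte attractants Ccl2 and Ccl7 averaged 224 ± 89.4 in shMDK+PD1 tumours and 22.3 ± 14.6 in shCtrl+IgG2A tumours (SD, n = 4 each) for Ccl2 and 206 ± 104 in shMDK+PD1 tumours and 20.7 ± 14.8 in shCtrl+IgG2A tumours (SD, n = 4 each) for Ccl7. Genes of lipid handling and of the lysosome, both prominent in macrophages, were higher in 7 of 12 and 8 of 18, and in 6 and 6 without the libraries with a positive GC slope. Among them were Lpl, a lipase that releases fatty acids, with 796 ± 406 in shMDK+PD1 tumours and 102 ± 17 in shCtrl+IgG2A tumours (SD, n = 4 each), Msr1, a scavenger receptor, with 251 ± 54.8 in shMDK+PD1 tumours and 31 ± 11.4 in shCtrl+IgG2A tumours (SD, n = 4 each), and Ctss, a cathepsin that cuts the invariant chain, with 2665 ± 1411 in shMDK+PD1 tumours and 182 ± 93.5 in shCtrl+IgG2A tumours (SD, n = 4 each). In the programmed cell death list 8 of 18 genes were higher and 1 lower (4 higher and none lower without the libraries with a positive GC slope), among them the inflammatory caspase Casp1 with 149 ± 17 in shMDK+PD1 tumours and 34.8 ± 5.83 in shCtrl+IgG2A tumours (SD, n = 4 each) and Casp12 with 178 ± 29.9 in shMDK+PD1 tumours and 14.1 ± 4.23 in shCtrl+IgG2A tumours (SD, n = 4 each). NF-kB targets and adhesion genes were higher in 9 of 17 (5 without the libraries with a positive GC slope), among them the leukocyte adhesion receptor Vcam1 with 185 ± 66.9 in shMDK+PD1 tumours and 29.3 ± 16.8 in shCtrl+IgG2A tumours (SD, n = 4 each).

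Matrix and vessel genes gave a less even picture. Mmp13, a collagenase, had 208, 155, 227 and 432 normalised counts in the shMDK+PD1 tumours, against 12.4, 5.33, 3.8 and 6.46 in the shCtrl+IgG2A tumours (log2 fold change 5.00 ± 0.42 SE, adjusted p = 4.12e-06). Mmp12, the macrophage elastase, was also among the 6 of 15 proteases and inhibitors that were higher (3 without the libraries with a positive GC slope) and is described below with the remaining groups. Of 19 fibroblast and matrix genes, 5 were higher with a median of 1.17, but none passed without the libraries with a positive GC slope, and leaving out single tumours gave 1 to 9. Col6a3, a chain of collagen VI, averaged 572 ± 230.0 in shMDK+PD1 tumours and 141 ± 83.2 in shCtrl+IgG2A tumours (SD, n = 4 each; log2 fold change 2.12 ± 0.44 SE, adjusted p = 0.00437). Col1a1, the main chain of collagen I, did not pass (adjusted p = 0.118): it had 6675, 1724, 786 and 2929 normalised counts in the shMDK+PD1 tumours, against 1342, 714, 494 and 1198 in the shCtrl+IgG2A tumours. Fibroblast markers summed to 1211 to 9340 in shMDK+PD1 and 815 to 1818 in shCtrl+IgG2A tumours, with none of 3 past the test. In blood endothelium 3 of 14 genes were higher and 1 lower, and none passed without the libraries with a positive GC slope. Cdh5, the cadherin of vessel walls, averaged 136 ± 37.6 in shMDK+PD1 tumours and 49.6 ± 20.5 in shCtrl+IgG2A tumours (SD, n = 4 each), and Tie1, an endothelial receptor, 52.7 ± 18.5 in shMDK+PD1 tumours and 17.8 ± 3.74 in shCtrl+IgG2A tumours (SD, n = 4 each). Eng, a coreceptor of the TGF-beta family, was lower, at 255 ± 33 in shMDK+PD1 tumours and 372 ± 55.8 in shCtrl+IgG2A tumours (SD, n = 4 each) (adjusted p = 0.0405), and kept its call in 2 of 8 fits that left out 1 tumour each. Pecam1, which encodes CD31, had 628, 208, 219.5 and 455 normalised counts in the shMDK+PD1 tumours, against 214, 147, 121 and 153 in the shCtrl+IgG2A tumours and did not pass (adjusted p = 0.0525). Summed endothelial markers were 518 to 1238 in shMDK+PD1 and 262 to 435 in shCtrl+IgG2A tumours, and 2 of 4 were higher. The TGF-beta pathway had 3 of 14 genes higher, and 1 without the libraries with a positive GC slope. Over all tested genes the shares were 6.39% and 3.29%, so counts this small say little about a list. No gene passed among 4 of lymphatic endothelium and 4 of skeletal muscle, while 1 of 2 keratinocyte and 1 of 2 adipocyte genes were higher, and none of these without the libraries with a positive GC slope.

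Partners of midkine formed a list of 12 tested genes, of which 3 were higher and only Mdk was lower. Sdc3, a heparan sulfate proteoglycan of the cell surface, is among the genes compared across all groups below. Sdc4, of the same family, averaged 386 ± 54.1 in shMDK+PD1 tumours and 213 ± 86.5 in shCtrl+IgG2A tumours (SD, n = 4 each; log2 fold change 0.94 ± 0.23 SE, adjusted p = 0.0148), and Lrp1, an endocytic receptor that macrophages and fibroblasts also carry, 255 ± 61.3 in shMDK+PD1 tumours and 98.7 ± 27.5 in shCtrl+IgG2A tumours (SD, n = 4 each; log2 fold change 1.38 ± 0.29 SE, adjusted p = 0.00544). Neither passed without the libraries with a positive GC slope, with adjusted p-values of 0.222 for Sdc4 and 0.154 for Lrp1.

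Genes of the tumour cells changed by far less. None of 16 pigmentation and melanocyte lineage genes passed, with a median log2 fold change of -0.07. Pmel, a melanosome protein, averaged 27597 ± 6120.0 in shMDK+PD1 tumours and 27008 ± 6031 in shCtrl+IgG2A tumours (SD, n = 4 each), and Tyr, the enzyme that starts melanin synthesis, 1373 ± 523 in shMDK+PD1 tumours and 1555 ± 714 in shCtrl+IgG2A tumours (SD, n = 4 each). Mitf, the transcription factor of the lineage, averaged 8534 ± 914 in shMDK+PD1 tumours and 11925 ± 1919 in shCtrl+IgG2A tumours (SD, n = 4 each) (adjusted p = 0.116). Dct, another melanin enzyme, had 78929, 72106, 52279 and 68315 normalised counts in the shMDK+PD1 tumours, against 131868, 111122, 94860.0 and 81565 in the shCtrl+IgG2A tumours, and although the groups did not overlap it did not pass (adjusted p = 0.0697). Of 12 genes linked to dedifferentiated melanoma, 4 were higher. The count was 2 without the libraries with a positive GC slope, and also without shMDK+PD1 tumour 4 or shCtrl+IgG2A tumour 2. Axl, a receptor tyrosine kinase that macrophages also carry, averaged 1340.1 ± 349 in shMDK+PD1 tumours and 331 ± 112 in shCtrl+IgG2A tumours (SD, n = 4 each; log2 fold change 2.03 ± 0.30 SE, adjusted p = 2.89e-04), and Tnc, a matrix glycoprotein, was spread from 89.8 to 622 in shMDK+PD1 tumours, against 57.5 to 72 in shCtrl+IgG2A tumours. Oxidative phosphorylation had none of 21 past the test (median 0.07). Hypoxia and glycolysis had 3 of 20 higher (median 0.06), against 6.39% of all tested genes higher. None of the 20 passed without the libraries with a positive GC slope, nor without shMDK+PD1 tumour 1 or 4. Vegfa, the vessel growth factor that hypoxia induces, averaged 613 ± 246 in shMDK+PD1 tumours and 490.0 ± 238 in shCtrl+IgG2A tumours (SD, n = 4 each) and did not pass (adjusted p = 0.528).

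Some genes of the cholesterol synthesis, cell cycle and Myc lists were lower, with small changes. Summed melanoma markers, given above, stood lower and summed macrophage and T cell markers higher in shMDK+PD1 tumours, and their part in these lists was not tested. Of 16 cholesterol synthesis genes, 7 were lower and none higher (median -0.65), against 3.47% of all tested genes lower. When 1 tumour was left out the lower count was 1 to 9, and 1 gene passed without the libraries with a positive GC slope. That gene was Fdps, an enzyme of the mevalonate pathway, which had 300.2, 513, 455 and 322 normalised counts in the shMDK+PD1 tumours, against 1069, 926, 710.4 and 734 in the shCtrl+IgG2A tumours (log2 fold change -1.13 ± 0.18 SE, adjusted p = 6.08e-04). Of 28 cell cycle genes, 5 were lower and none higher (median -0.24). When 1 tumour was left out the lower count was 1 to 6, and none passed without the libraries with a positive GC slope. Mcm3, a subunit of the replicative helicase, had 1614, 1575, 2069.5 and 1723 normalised counts in the shMDK+PD1 tumours, against 2838, 2864, 2503 and 2571 in the shCtrl+IgG2A tumours (log2 fold change -0.63 ± 0.15 SE, adjusted p = 0.00964). Cenpe, a kinesin of the kinetochore, averaged 622 ± 38.5 in shMDK+PD1 tumours and 941 ± 84.4 in shCtrl+IgG2A tumours (SD, n = 4 each), and Mki67, the common marker of cycling cells, did not pass (adjusted p = 0.0824) at 1431 ± 204 in shMDK+PD1 tumours and 2162 ± 568 in shCtrl+IgG2A tumours (SD, n = 4 each). Of 18 genes of the Myc list 3 were lower and 1 higher (median -0.46), and without the libraries with a positive GC slope 1 was lower and none higher. Npm1 and Nop58, nucleolar proteins of ribosome assembly, averaged 6933 ± 1240.5 in shMDK+PD1 tumours and 12578 ± 847 in shCtrl+IgG2A tumours (SD, n = 4 each) for Npm1 and 1832 ± 393 in shMDK+PD1 tumours and 3435 ± 558 in shCtrl+IgG2A tumours (SD, n = 4 each) for Nop58. Myc itself had 19.4, 16.6, 27.1 and 40.6 normalised counts in the shMDK+PD1 tumours, against 50.6, 28.8, 104 and 116 in the shCtrl+IgG2A tumours, with the groups overlapping and the call (adjusted p = 0.0424) kept in 2 of 8 fits that left out 1 tumour each. In the unfolded protein list 3 of 18 were lower, among them the chaperone Dnajc3 with 1038 ± 65.1 in shMDK+PD1 tumours and 1845 ± 195 in shCtrl+IgG2A tumours (SD, n = 4 each; log2 fold change -0.82 ± 0.15 SE, adjusted p = 0.00212), and 1 was higher, the stress-induced factor Atf3 with 144 ± 80.4 in shMDK+PD1 tumours and 39.5 ± 11.4 in shCtrl+IgG2A tumours (SD, n = 4 each). The lower count was 1 without the libraries with a positive GC slope, and also without shMDK+PD1 tumour 1 or 2 or shCtrl+IgG2A tumour 3. Immediate early and heat shock genes had 7 of 16 higher (median 1.12), but 1 without the libraries with a positive GC slope and 2 without shMDK+PD1 tumour 4 or shCtrl+IgG2A tumour 2.

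Several of the 15 called genes with the largest falls and no overlap between groups belong to none of these lists, and 4 of them are described here. Col9a1, a collagen chain of cartilage, was at 0, 0.979, 0.848 and 0 normalised counts in the shMDK+PD1 tumours, against 18, 22.4, 13.3 and 19.4 in the shCtrl+IgG2A tumours. Klf12, a zinc finger repressor, averaged 4.92 ± 3 in shMDK+PD1 tumours and 27 ± 7.89 in shCtrl+IgG2A tumours (SD, n = 4 each; log2 fold change -2.41 ± 0.46 SE, adjusted p = 0.00255), with an adjusted p of 0.084 without the libraries with a positive GC slope. Abca12, a lipid transporter best known from skin, had 17.5, 24.5, 13.6 and 18.6 normalised counts in the shMDK+PD1 tumours, against 83.3, 75.7, 80.8 and 60.9 in the shCtrl+IgG2A tumours (log2 fold change -1.98 ± 0.28 SE, adjusted p = 2.46e-04). Dhrs2, a short-chain dehydrogenase, had 98.1, 86.2, 74.6 and 129.5 normalised counts in the shMDK+PD1 tumours, against 341, 377, 429 and 317 in the shCtrl+IgG2A tumours (log2 fold change -1.92 ± 0.25 SE, adjusted p = 1.40e-04). For both genes the groups stood well apart, and both passed without the libraries with a positive GC slope.

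**Figure D3:**
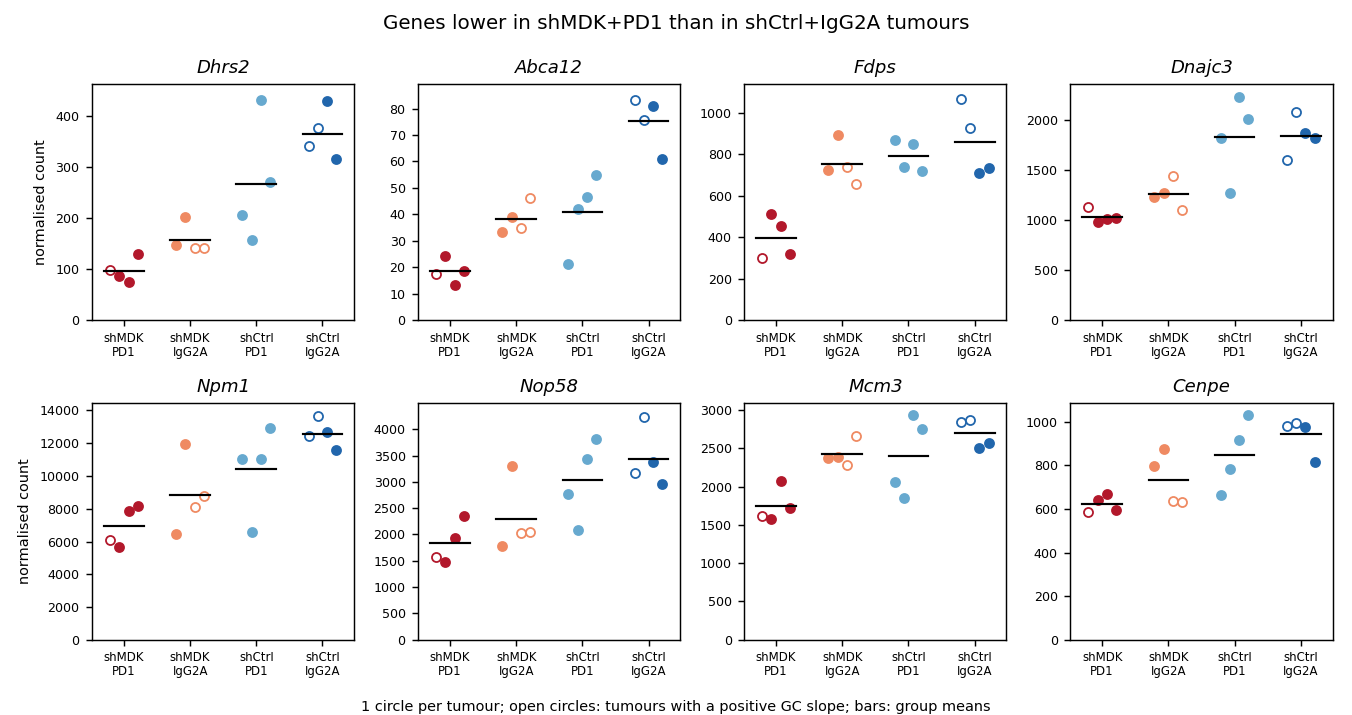
Normalised counts (linear scale from 0) of 8 genes that were lower in shMDK+PD1 than in shCtrl+IgG2A tumours, 1 circle per tumour, with a bar at the group mean and open circles for tumours with a positive GC slope. In all 8 genes every shMDK+PD1 tumour lies below every shCtrl+IgG2A tumour, and the gap relative to the control level is widest for Dhrs2 and Abca12.

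The groups that had only the knockdown or only the antibody place the contrast. Each of these comparisons shares tumours with the contrast above, so their values are given side by side and are not independent of it. With the knockdown alone, 255 genes (1.74%) differed between shMDK+IgG2A and shCtrl+IgG2A tumours, 239 higher (1.63%) and 16 lower (0.109%), and 1422 had an unadjusted p under 0.05 (9.69%). The 255 became 136 to 167 without shMDK+IgG2A tumour 1 or 3 or shCtrl+IgG2A tumour 3 or 4. Anti-PD1 alone gave no gene past limma's test between shCtrl+PD1 and shCtrl+IgG2A tumours, with 556 at an unadjusted p under 0.05 (3.79%), none by edgeR and 7 by DESeq2. Against anti-PD1 alone, 870 genes (5.93%) differed in shMDK+PD1 tumours, 724 higher (4.93%) and 146 lower (0.995%), and 2617 had an unadjusted p under 0.05 (17.8%). Without shMDK+PD1 tumour 1 the 870 became 453. Against the knockdown alone, 5 genes (0.0341%) did, 4 higher (0.0273%) and 1 lower (0.00682%), while 1826 genes had an unadjusted p under 0.05 (12.4%). By edgeR 8 genes passed in that comparison and by DESeq2 248. The departure from additivity, which tests whether the combined change differs on the log2 scale from the sum of the single changes, was past the threshold for no gene by limma, edgeR or DESeq2, with 506 genes at an unadjusted p under 0.05 (3.45%). A count of 0 in these tests does not show that the changes add up.

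List medians over the same control tumours show where the groups stood. The interferon gamma list had a median log2 fold change over shCtrl+IgG2A of 2.94 in shMDK+PD1, 1.95 in shMDK+IgG2A and 0.59 in shCtrl+PD1 tumours. MHC class II presentation had medians of 3.91, 3.3 and 0.78 in the same order. For cytotoxic effectors they were 4.16, 3.04 and 0.05. The alternatively activated myeloid list had 3.44, 0.88 and 0.04, and its median between shMDK+PD1 and shMDK+IgG2A tumours was 2.44, although none of its genes passed in that comparison. Arg1, for example, averaged 730.4 ± 177 in shMDK+PD1, 142 ± 66.3 in shMDK+IgG2A, 52.3 ± 60 in shCtrl+PD1 and 57.2 ± 32.4 in shCtrl+IgG2A tumours (shMDK+PD1 against shMDK+IgG2A: log2 fold change 2.44 ± 0.60 SE, adjusted p = 0.162). Ccl8 averaged 2189 ± 1015 in shMDK+PD1, 449.5 ± 138 in shMDK+IgG2A, 150.3 ± 128 in shCtrl+PD1 and 135 ± 82.9 in shCtrl+IgG2A tumours (same comparison: log2 fold change 2.21 ± 0.64 SE, adjusted p = 0.21). Cholesterol synthesis had medians of -0.65, -0.17 and 0.08, and the 6 erythrocyte genes, none of which passed, had -1.23, -1.05 and -0.57. The first of these was -0.58 without shCtrl+IgG2A tumour 1, -2.23 without shCtrl+IgG2A tumour 3 and -0.62 without the libraries with a positive GC slope. Summed erythrocyte markers were 9742 to 20513 in shMDK+PD1 and 3543 to 68624 in shCtrl+IgG2A tumours.

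**Figure D4:**
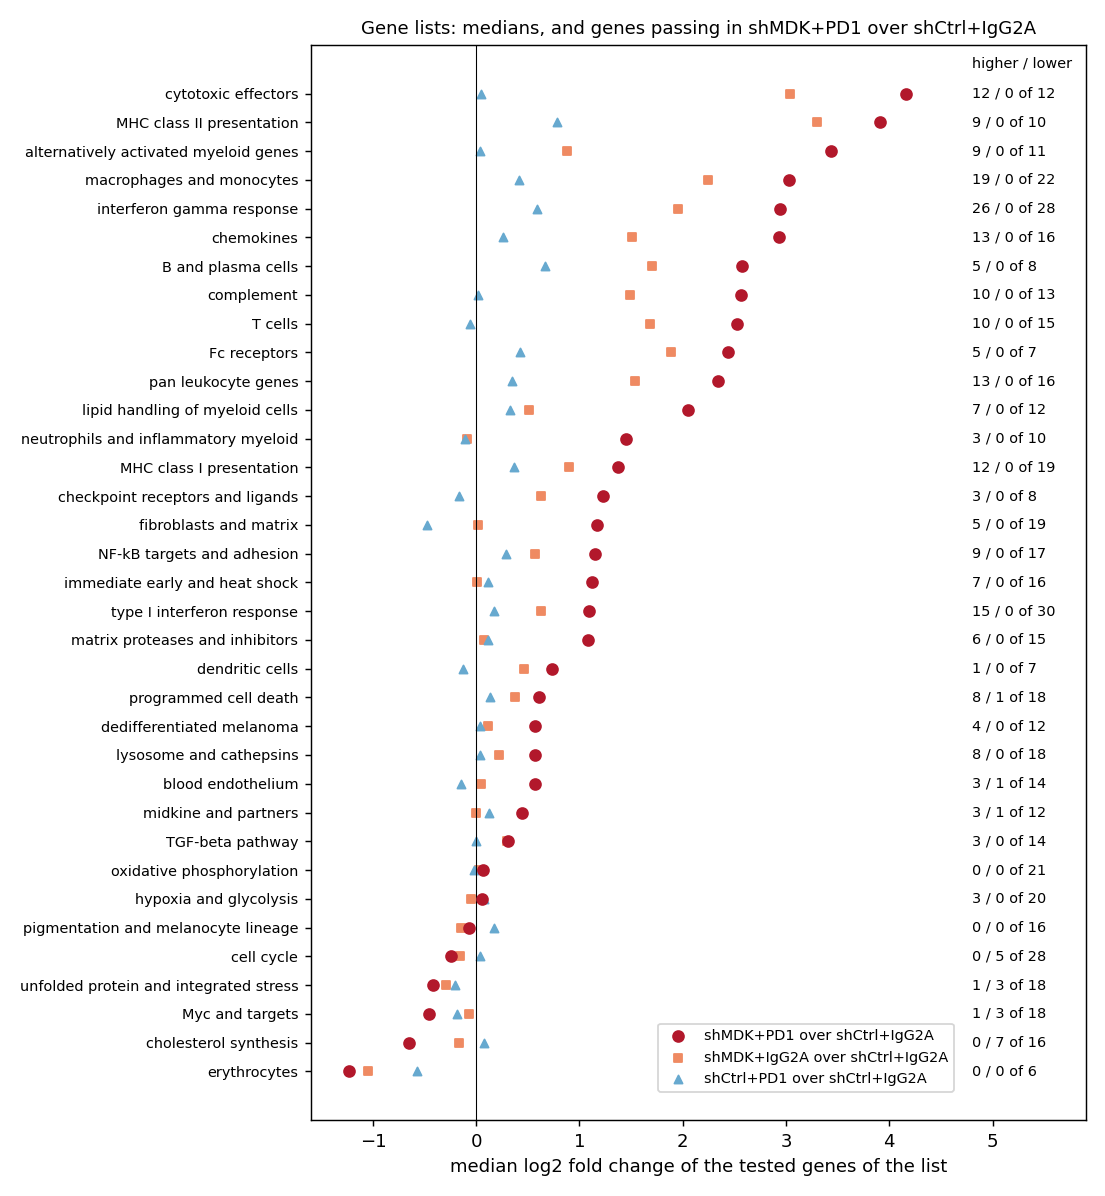
Median log2 fold change over shCtrl+IgG2A tumours of the tested genes of each list, for shMDK+PD1 (circles), shMDK+IgG2A (squares) and shCtrl+PD1 (triangles), with the number of genes higher and lower in shMDK+PD1 at the right. Immune lists lie to the right with circles beyond squares and squares beyond triangles in most of them. Circles left of 0 include those of cholesterol synthesis, Myc targets, the unfolded protein list, cell cycle and erythrocytes. The triangles of cholesterol synthesis (0.08) and cell cycle (0.04) lie right of 0.

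Only 5 genes passed in shMDK+PD1 tumours against each of the other 3 groups, namely Sdc3, Mmp12, Ctsl and Slfn4, which were higher, and Mbnl3, which was lower. Sdc3 (chr4:130792537-130826319, plus strand, GRCm38), the syndecan named above as a midkine partner, had 337, 395, 331 and 344 normalised counts in shMDK+PD1, 188, 137, 122 and 104 in shMDK+IgG2A, 106, 144, 97.6 and 116 in shCtrl+PD1 and 46.1, 59.7, 59 and 72.9 in shCtrl+IgG2A tumours. No tumour of another group reached the lowest of the shMDK+PD1 tumours. The change was 2.56 ± 0.20 (log2, SE) over shCtrl+IgG2A and 1.38 ± 0.20 over shMDK+IgG2A tumours, with adjusted p-values of 1.26e-06 and 0.0152. Mmp12 (chr9:7344381-7369499, plus strand) averaged 659.7 ± 162 in shMDK+PD1, 168 ± 60.9 in shMDK+IgG2A, 87.8 ± 41.1 in shCtrl+PD1 and 31.6 ± 7.12 in shCtrl+IgG2A tumours (SD, n = 4 each). It was 4.33 ± 0.31 (log2, SE) above shCtrl+IgG2A and 1.99 ± 0.31 above shMDK+IgG2A tumours (adjusted p = 6.56e-07 and 0.0312). Ctsl (chr13:64359337-64370890, minus strand), the lysosomal protease cathepsin L, averaged 1269 ± 241 in shMDK+PD1, 479 ± 33.4 in shMDK+IgG2A, 577 ± 95.5 in shCtrl+PD1 and 495 ± 142 in shCtrl+IgG2A tumours, with the 3 other groups close to each other. Slfn4 (chr11:83175186-83190216, plus strand), an interferon-induced gene of mouse myeloid cells, averaged 65.3 ± 6.75 in shMDK+PD1, 10.7 ± 5.28 in shMDK+IgG2A, 6.72 ± 4.68 in shCtrl+PD1 and 6.19 ± 2.93 in shCtrl+IgG2A tumours. Mbnl3 (chrX:51117269-51206532, minus strand), an RNA-binding splicing regulator, averaged 119 ± 17 in shMDK+PD1, 244 ± 6.57 in shMDK+IgG2A, 206 ± 32.9 in shCtrl+PD1 and 262 ± 59.1 in shCtrl+IgG2A tumours. For Ctsl, Slfn4 and Mbnl3 the adjusted p against shMDK+IgG2A was 0.0152, 0.0481 and 0.0481. Leaving out 1 tumour gave 0 to 12 genes in the comparison with shMDK+IgG2A, so the number of 5 is not stable.

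**Figure D5:**
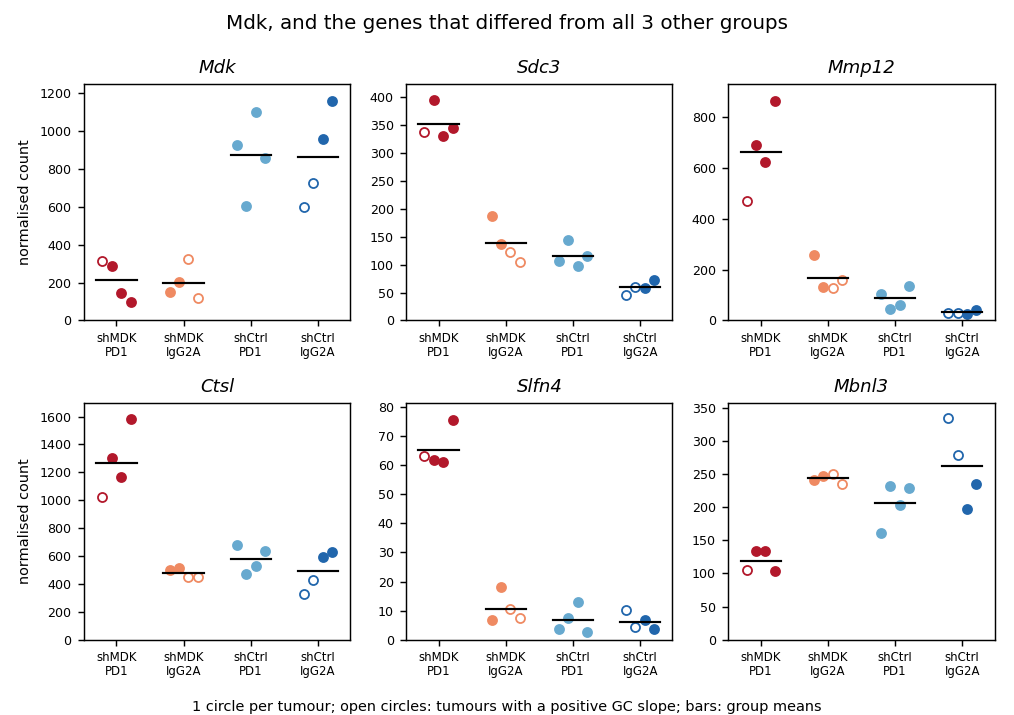
Normalised counts (linear scale from 0) of Mdk and of the 5 genes that passed against each of the 3 other groups, 1 circle per tumour in all 4 groups, with a bar at the group mean and open circles for tumours with a positive GC slope. The shMDK+PD1 tumours stand clear of every other tumour for Sdc3, Mmp12, Ctsl, Slfn4 and Mbnl3, while Mdk separates the lines and not the antibodies.

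The 3 genes with the smallest p for departure from additivity were Stra6l, Ighg2c and Calr4, and none passed. Ighg2c, an immunoglobulin constant region whose reads can be shared with other heavy chains, averaged 8.1 ± 6.65 in shMDK+PD1, 59.7 ± 30.5 in shMDK+IgG2A, 2.44 ± 0.992 in shCtrl+PD1 and 1.29 ± 0.962 in shCtrl+IgG2A tumours, so it was highest in the group with the knockdown alone. Stra6l averaged 14.7 ± 3.98 in shMDK+PD1, 5.29 ± 0.809 in shMDK+IgG2A, 5.32 ± 1.9 in shCtrl+PD1 and 12.1 ± 3.53 in shCtrl+IgG2A tumours, and Calr4 8.47 ± 3.63 in shMDK+PD1, 3.44 ± 2.37 in shMDK+IgG2A, 2.36 ± 1.25 in shCtrl+PD1 and 10.2 ± 1.93 in shCtrl+IgG2A tumours. In these 2 genes the groups with 1 change lay below both the combination and the control.

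Of all genes, the smallest p in the contrast belonged to Gm43305 (chr14:54292443-54297456, minus strand), a gene model named here after its values were seen. It averaged 5255 ± 1004 in shMDK+PD1, 10044 ± 2060.5 in shMDK+IgG2A, 115 ± 45 in shCtrl+PD1 and 124 ± 30.3 in shCtrl+IgG2A tumours (log2 fold change 5.40 ± 0.23 SE, adjusted p = 2.46e-10), and separated the lines whatever the antibody. With 1 hairpin line in each arm, a difference of this kind cannot be told apart from a difference between the 2 lines that predates the tumours.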

How the data were processed

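RNA was measured in 16 tumours, 4 in each of 4 groups, from 500 ng of total RNA with a stranded 3′-end kit on a NextSeq 550, per the labels' protocols. RNA integrity numbers averaged 8.6 (5.8 to 9.2). The deposited table holds a normalised signal per gene and tumour, and per the submitters' processing notes the build was GRCm38 (mm10) and the tools named include HTSeq, DESeq2, SAMtools 0.1.19, TopHat2 2.0.10 and Bowtie 1.0.0. The annotation release is not given in the sources used here. All values (100.0%) were whole multiples of 1 read within 0.001, so whole reads were recovered. Replicate numbers follow accession order and pair nothing. The labels call the samples separate tumours, so p-values measure the spread between tumours.

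Genes with a mean of at least 5 were tested with limma 3.58.1 (R 4.3.3; empirical Bayes with a trend) on log2(value + 1), with all 16 tumours in the fit, 12 residual degrees of freedom and Benjamini-Hochberg adjustment over all genes within a comparison. Adjusted p-values are those of this fit. Fold changes on the log2(value + 1) scale understate the change of low genes. edgeR 4.0.16 and DESeq2 1.42.0 on the recovered reads, TMM factors, other pseudocounts and filters, and fits without single tumours were alternatives. The limma step was tested on simulated data. The GC slope is the slope of a tumour's log2 deviation on the GC content of the last 300 transcript bases (GENCODE M21), called positive above 0.05.

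Members, gene lists, markers and the rule for named genes were chosen with earlier results of these data known. The rule took the 15 largest rises and falls among called genes without overlap between groups, up to 4 called members of each list, the genes called against all 3 other groups, the 3 with the smallest p for departure from additivity, and a fixed set; the text gives those that matter most, and a few are not reported here. Promoters come from RefSeq (GRCm38.p6), where 17 of 26 called interferon gamma genes had an entry.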

Additional observations from a re-analysis of the deposited data

Results flagged for a closer look

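In 10 of 192 combinations of a named gene and a group, 1 of the 4 tumours lay apart, with its gap to the nearest of the others as a share of the group's range above the 95% critical value of Dixon's test for 4 samples. For normally distributed values chance gives about 1 in 20. Where all tumours of a group but 1 are at 0, as for Prf1, Gzma and Ubd below, the gap is 1.0 by construction. That rate does not apply to such genes, so the number of flags cannot be set against it. Only 2 of the 10 were in shMDK+PD1 tumours: Slfn4 was highest in tumour 4 (75.3, the others 61 to 63.1, gap 0.837 of the range), and Eng was lowest in tumour 1 (206, the others 265 to 277, gap 0.848). The other 8 were in shCtrl+IgG2A tumours. Among cytotoxic and interferon genes at or near 0 there, Gzmc was highest in tumour 1 (6.75, the others 0.923 to 1.07, gap 0.949). Prf1 was highest in tumour 1 (11.3, the others 0, gap 1.0), Gzma in tumour 2 (1.07, the others 0, gap 1.0) and Ubd in tumour 4 (0.923, the others 0, gap 1.0), the last 2 from 1 read each. Vcam1 was highest in tumour 2 (54.4, the others 19.4 to 22.5, gap 0.857) and Cdh5 in tumour 4 (80.3, the others 38 to 40.5, gap 0.916). Lrp1 was lowest in tumour 2 (57.5, the others 111 to 114, gap 0.959) and Cenpe in tumour 4 (815, the others 977 to 994, gap 0.91).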

How the results depend on the processing

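No paired analysis was possible because the labels give no replicate numbers. Without the libraries with a positive GC slope, a setting chosen after seeing the data that leaves 3 against 2 tumours, 564 genes passed between shMDK+PD1 and shCtrl+IgG2A (483 higher, 81 lower), 74 between shMDK+IgG2A and shCtrl+IgG2A, and 1 between shMDK+PD1 and shMDK+IgG2A. With the GC slope as a covariate, also chosen after seeing the data, these counts were 2301 (934 lower), 414 and 56, and 1434 against shCtrl+PD1. DESeq2 gave 853 lower genes in the main contrast, 449 for the knockdown alone, 248 against shMDK+IgG2A, 1310 against shCtrl+PD1 and 7 for anti-PD1 alone. Against shMDK+IgG2A, TMM factors, a pseudocount of 0.5 and no filter on low values gave 3 genes each, edgeR 8, a fit on the 2 groups alone 25 and a pseudocount of 5 gave 27. Without the 2 libraries high in Gm42418, also chosen after seeing the data, that comparison had 11 genes and anti-PD1 alone had 3. Leaving out 1 tumour at a time gave 952 to 1470 genes in the main contrast, of them 228 to 570 lower, 0 to 12 against shMDK+IgG2A, 453 to 851 against shCtrl+PD1, 136 to 272 for the knockdown alone and 0 to 2 for anti-PD1 alone. Departure from additivity gave 0 genes in each setting run, and the Mdk level stayed between 20.6% and 28.9% of control. No named gene reversed its direction in a setting if it passed there or in the main fit. Changes of sign in genes that passed in neither were not counted. The cause of these shifts was not tested. For genes near 0 in the controls, depth limits the size of a change.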
